A study of Mus musculus with 2 samples.

Results

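The Bcl2 family of survival and death genes was described in 1 RNA-seq library from *Ebf1* -/- pre-pro-B cells and 1 from *Rag2* -/- pro-B cells. The members were 10 genes named beforehand by symbol, of 20250 genes with a protein-coding RefSeq transcript in the deposited values. They fall into 4 anti-apoptotic genes (*Bcl2*, *Bcl2l1*, *Mcl1* and *Bcl2l2*), 2 effectors (*Bax* and *Bak1*) and 4 BH3-only genes (*Bcl2l11*, *Pmaip1*, *Bbc3* and *Bid*), with 13 transcripts in all. Both cell types have a C57BL/6 background and were grown on OP-9 stromal cells with Il-7 at 5 ng/mL, and the pre-pro-B cells alone also received Scf and Flt3l at 10 ng/mL each. The groups also differ in source: fetal liver of females for the *Ebf1* -/- cells, and marrow of adult males for the *Rag2* -/- cells. Cell type, genotype, sex, age, tissue of origin and cytokines therefore cannot be told apart, and no difference has a replicate check.

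Proteins of this family decide whether the outer membrane of the mitochondrion is opened, the step that releases cytochrome c and starts the caspases. Anti-apoptotic members hold the effectors Bax and Bak inactive, and BH3-only proteins, induced or activated by stress or loss of a growth factor, bind the anti-apoptotic members or activate the effectors directly. Developing lymphocytes depend on signals such as Il-7 to keep this balance on the side of survival, and mouse genetics has shown roles for *Mcl1*, *Bcl2* and *Bcl2l1* at different stages.

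Levels are FPKM, fragments scaled to transcript length and library size, so they can be set side by side between genes. Each FPKM carries the lower and upper 95% limits of Cuffdiff's model, which describe 1 library and are no replicate error. Where a gene has several transcripts, its FPKM is their sum, and its limits are the sums of their limits. Limits of a sum over genes are added in the same way. Added limits are not 95% limits of the sum. Fold differences are ratios of FPKM as listed, whereas log2 changes and counts past 2-fold add a pseudocount of 1 to each FPKM unless stated. The labels give about 90 M single-end reads of 97 bp per library. The files hold no counts, so the fragments behind a value are unknown. The cell types carried their markers. All 8 B lineage genes examined were higher in the pro-B library, but 1 of them is *Ebf1*, the gene targeted in the pre-pro-B cells. *Kit*, *Flt3* and *Cd34* were high in the pre-pro-B library only (FPKM of 107, 303 and 534, against 0.377, 0.916 and 1.52). *Ebf1* had an FPKM of 64.0 (limits 2.78 to 149) in the library from *Ebf1* -/- cells and of 273 (limits 8.50 to 729) in the other, and *Rag2* had 34.5 in the pre-pro-B library and 22.9 in the pro-B library, so neither targeted gene was at 0 in its null cells.

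The family differed most in which anti-apoptotic gene was abundant. *Bcl2*, the founding survival gene of the family, was 16.5-fold lower in the pro-B library, whereas *Bcl2l1*, which encodes Bcl-xL, was 13.3-fold higher. *Mcl1*, whose short-lived protein is needed by many blood cells, was high in both. In such bulk RNA, fewer cells that express a gene and less RNA per cell cannot be told apart. Among the BH3-only genes, *Pmaip1* and *Bid* were lower in the pro-B library and *Bcl2l11* and *Bbc3* stayed within 2-fold, as did both effectors. On the scale of log2(FPKM + 1), 2 of the 10 genes were 2-fold or more higher in the pro-B library, where 6.34% of all genes were, and 3 were 2-fold or more lower, where 9.94% of all genes were. All 10 had an FPKM of 1 or more in both libraries. Among the 10528 genes that reached this level in a library, the shares were 12.2% and 19.1%. The median log2 change of the members was -0.39, against -0.14 for those 10528 genes.

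For none of the 13 transcripts were the limits of the libraries apart. Counted singly, 2 transcripts were 2-fold or more higher in the pro-B library (6.73% of all transcripts were) and 4 lower (10.2%). Limits were apart for 2.11% of all protein-coding transcripts and 4.4% of those with an FPKM of 1 or more in either library. The lower limit was 0 in at least 1 library for 6 of the 13. Each of the 13 was quantified with a status of OK in both libraries. The fold differences below are thus differences between 2 libraries whose modelled limits overlap.

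**Figure D1:**
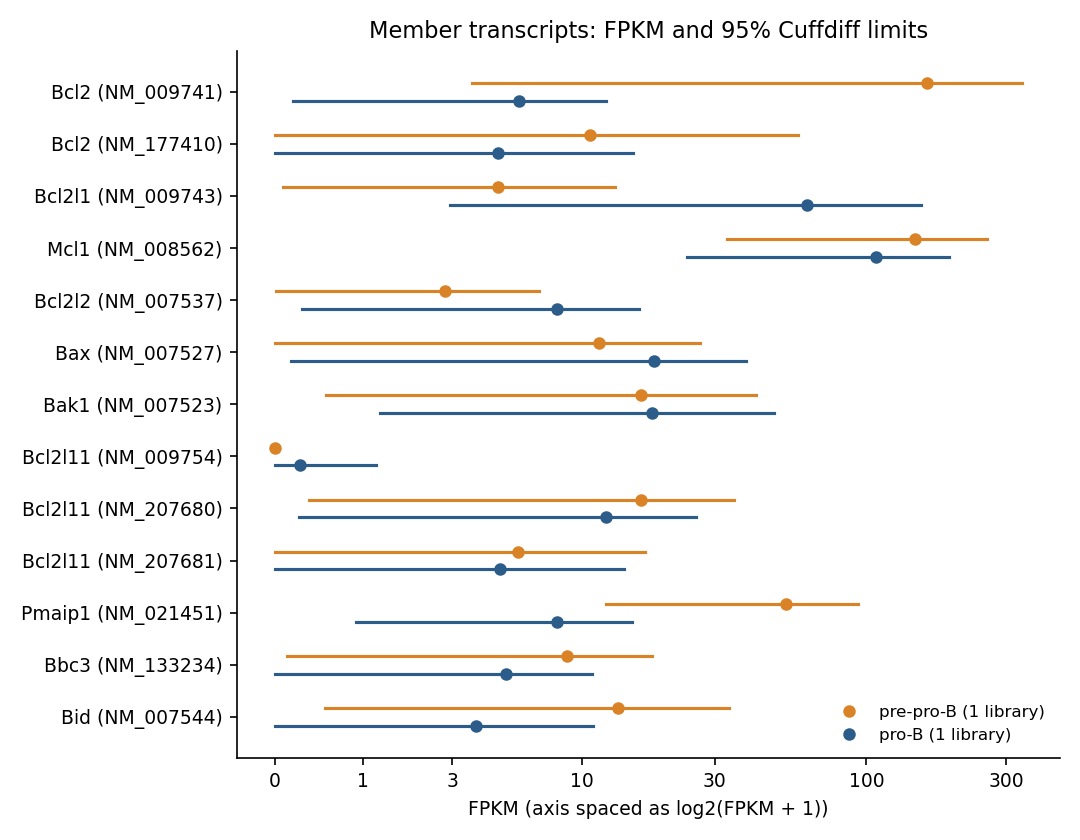
FPKM (x axis, spaced as log2(FPKM + 1)) of the 13 member transcripts in the pre-pro-B library (orange) and pro-B cells (blue), 1 library each, with bars for the 95% limits of Cuffdiff's model. The points of NM_009741 of Bcl2 (161 and 5.70) and of NM_009743 of Bcl2l1 (4.70 and 62.6) are far apart in opposite directions, and the bars of the libraries overlap in every row.

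*Bcl2* (ENSMUSG00000057329, chromosome 1 of mm9, 108434755 to 108610851, minus strand) had a summed FPKM of 172 in the pre-pro-B library (limits 3.66 to 398) and of 10.4 in the pro-B library (limits 0.152 to 27.6), a log2 change of -3.92 with a pseudocount of 1. In the pre-pro-B library only 213 genes had a higher FPKM, and in the pro-B library 5578 did. Of the 20250 genes, 179 (0.884%) were lower in the pro-B library by as much or more. All 179 are among the 10528 genes with an FPKM of 1 or more in a library, so the share of those genes is larger. The difference lay mostly in NM_009741, the long transcript of 7206 bases that encodes the membrane-anchored alpha form. Its FPKM was 161 (limits 3.66 to 339.9) in the pre-pro-B library and 5.70 (limits 0.152 to 12.2) in the pro-B library, a 28.2-fold difference. NM_177410, the 2518-base transcript of the beta form, had an FPKM of 10.7 (limits 0 to 58.2) and 4.71 (limits 0 to 15.3). The alpha transcript held 93.7% of the *Bcl2* FPKM in the pre-pro-B library and 54.8% in the pro-B library. Both share exons, so the split between them rests on Cuffdiff's division of common reads.

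*Bcl2l1* (ENSMUSG00000007659, chromosome 2, 152593052 to 152657464, minus strand) went the other way. Its single listed transcript, NM_009743, had an FPKM of 4.70 (limits 0.0667 to 13.2) in the pre-pro-B library and of 62.6 (limits 2.92 to 154) in the pro-B library, a log2 change of 3.48. It was exceeded by 8054 genes in the pre-pro-B library and by 1102 in the pro-B library, and 131 of the 20250 genes (0.647%) were higher in the pro-B library by as much or more. All 131 are likewise among the 10528 genes with an FPKM of 1 or more in a library, so the share of those genes is larger. The ratio of *Bcl2* to *Bcl2l1* FPKM was 36.5 in the pre-pro-B library, and the ratio of *Bcl2l1* to *Bcl2* was 6.01 in the pro-B library. Splicing of *Bcl2l1* also yields Bcl-xS, a short form that promotes death, and a single listed transcript does not separate the forms.

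The promoters of these oppositely placed genes are shown because their transcripts differed most, and in opposite directions, among the members. Each is the 250 bases of mm9 just before the start, taken as the outermost of the GENCODE gene and the deposited locus and read 5′ to 3′ on the gene's strand, and most of it, up to the start, is also found in the RefSeq promoter table of GRCm38.p6. The *Bcl2* stretch is chr1:108610868-108611117 and the *Bcl2l1* stretch is chr2:152657465-152657714, both on the minus strand. The start used for *Bcl2* (108610867) lies 16 bases beyond the GENCODE gene given above, and that of *Bcl2l1* is the end of its GENCODE gene. Capitals mark matches, on either strand, to CCCNNGGG (the core of the Ebf1 motif), TTCNNNGAA (the STAT motif) or CAGNTG (an E box), which do not overlap each other here.
Bcl2: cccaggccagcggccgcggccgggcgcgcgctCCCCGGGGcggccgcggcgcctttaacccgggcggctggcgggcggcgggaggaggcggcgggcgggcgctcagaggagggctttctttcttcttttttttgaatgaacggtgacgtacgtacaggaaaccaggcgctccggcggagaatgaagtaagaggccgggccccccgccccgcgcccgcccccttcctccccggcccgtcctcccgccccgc
Bcl2l1: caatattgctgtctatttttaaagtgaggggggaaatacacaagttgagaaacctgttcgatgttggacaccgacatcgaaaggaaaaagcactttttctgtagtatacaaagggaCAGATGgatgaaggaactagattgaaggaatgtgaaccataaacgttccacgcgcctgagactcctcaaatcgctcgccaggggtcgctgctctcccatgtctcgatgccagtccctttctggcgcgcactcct
The *Bcl2* stretch is GC-rich (74.8% G or C) and holds 1 match to CCCNNGGG, 218 bases before the start. The *Bcl2l1* stretch has 47.6% G or C, the lowest among the 9 member promoters examined (highest 76.4%, *Pmaip1* not examined). The median over 32851 RefSeq promoters of the same length was 52.4%. The *Bcl2l1* stretch holds 1 match to CAGNTG, 134 bases before the start. CCCNNGGG occurred in 2 of the 9 (*Bcl2* and *Bid*) and in 11.8% of 32851 RefSeq promoters of the same length. CAGNTG occurred in 2 of the 9 (*Bcl2l1* and *Bak1*) and in 44.8% of those promoters, and TTCNNNGAA in 0 of the 9 and in 7.02%. A match describes letters in this window and does not show that a factor binds. Which start the measured RNA used was not tested.

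*Mcl1* (ENSMUSG00000038612, chromosome 3, 95462643 to 95467099, plus strand) had an FPKM of 146 (limits 33.2 to 258) in the pre-pro-B library and of 108 (limits 23.8 to 191) in the pro-B library, a 1.36-fold difference with largely shared limits. Its level stood among the highest of all genes in both libraries, exceeded by 275 genes in the pre-pro-B library and by 550 in the pro-B library. *Bcl2l2*, which encodes Bcl-w (ENSMUSG00000089682, chromosome 14, 55502214 to 55507071, plus strand), had the lowest summed FPKM of the anti-apoptotic members in both. Its FPKM was 2.78 (limits 0.0114 to 6.85) in the pre-pro-B library and 8.07 (limits 0.240 to 16.2) in the pro-B library, a 2.90-fold higher value in the pro-B library. The annotation places a same-strand protein-coding model, *Gm20521*, across *Bcl2l2*, and reads of both models cannot be told apart where they share exons.

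Summed over the 4 genes, the anti-apoptotic FPKM was 325 in the pre-pro-B library (limits 36.9 to 676) and 189 in the pro-B library (limits 27.2 to 389). *Bcl2* made up 52.7% of this sum in the pre-pro-B library and 5.52% in the pro-B library. The share of *Bcl2l1* was 1.44% and 33.1%, and that of *Mcl1* 45.0% and 57.1%, in the same order. The sum thus came mostly from *Bcl2* and *Mcl1* in the pre-pro-B library, and from *Mcl1* and *Bcl2l1* in the pro-B library.

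**Figure D2:**
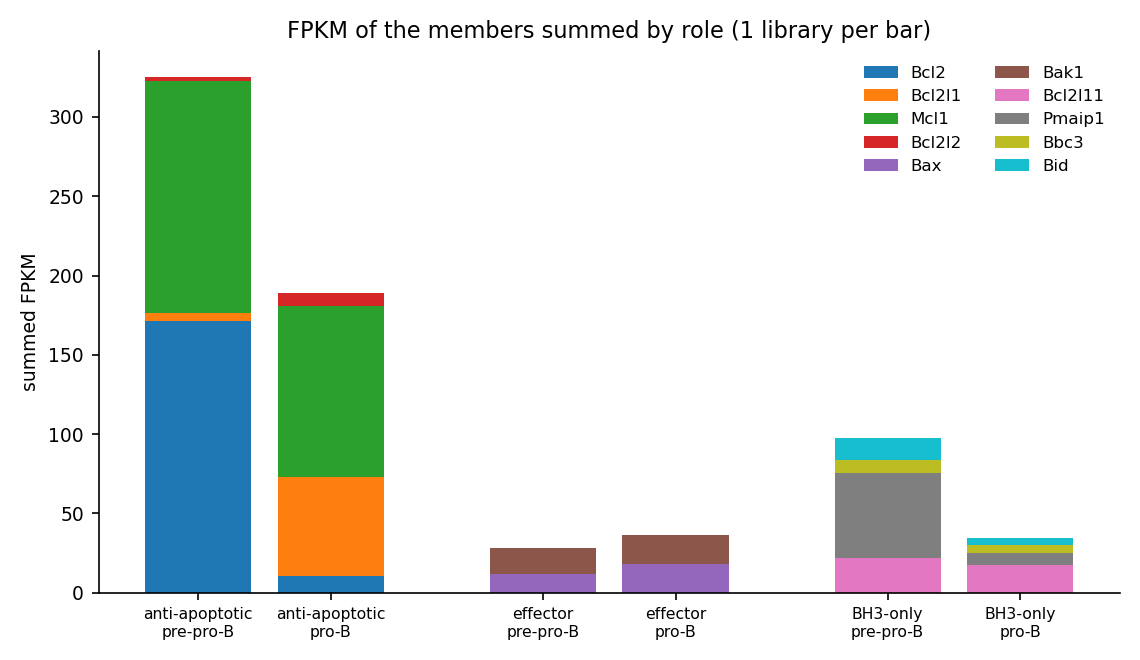
Summed FPKM (y axis, from 0) of the anti-apoptotic, effector and BH3-only members in the pre-pro-B and the pro-B library (1 library per bar), with a colour for each gene. The anti-apoptotic bars (325 and 189) are the tallest, Bcl2 fills 52.7% of the first and Bcl2l1 33.1% of the second, and the BH3-only bar is 97.6 in the pre-pro-B library and 34.2 in the pro-B library.

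The effectors, which form the pore in the outer membrane, were within 2-fold of each other and between the cell types. *Bax* (ENSMUSG00000003873, chromosome 7, 52717065 to 52722268, minus strand) had an FPKM of 11.5 (limits 0 to 26.7) in the pre-pro-B library and of 18.3 (limits 0.136 to 38.5) in the pro-B library. *Bak1* (ENSMUSG00000057789, chromosome 17, 27156755 to 27165954, minus strand) had 16.4 (limits 0.493 to 41.6) and 18.01 (limits 1.28 to 48.1). The ratio of *Bax* to *Bak1* FPKM was 0.704 in the pre-pro-B library and 1.02 in the pro-B library. *Bak1* is spanned on the opposite strand by *Ggnbp1*, whose FPKM was 0.115 in the pre-pro-B library and which was listed at 0 in the pro-B library. The summed FPKM of the anti-apoptotic members was 11.7 times that of the effectors in the pre-pro-B library and 5.19 times in the pro-B library, and it was 3.33 and 5.51 times that of the BH3-only members, which are ratios of RNA levels and not of proteins.

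Of the BH3-only genes, *Pmaip1* encodes Noxa, which binds mainly Mcl-1. Its FPKM was 53.1 (limits 12.3 to 94.0) in the pre-pro-B library and 8.07 (limits 0.893 to 15.2) in the pro-B library, a 6.58-fold difference and a log2 change of -2.58 with a pseudocount of 1. Among the members past 2-fold its limits overlapped over a narrow stretch, from 12.3 to 15.2. The ratio of *Pmaip1* to *Mcl1* FPKM was 0.363 in the pre-pro-B library and 0.0749 in the pro-B library. *Bid* (ENSMUSG00000004446, chromosome 6, 120841948 to 120866871, minus strand), which links the death receptors to the mitochondrion once caspase 8 has cut it, had an FPKM of 13.6 (limits 0.481 to 33.5) in the pre-pro-B library and of 3.80 (limits 0 to 11.0) in the pro-B library, a 3.58-fold difference. It overlaps *Bcl2l13* on the opposite strand, which had an FPKM of 9.48 and 11.0. The libraries were strand-specific.

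*Bcl2l11* and *Bbc3* encode Bim and Puma, which bind every anti-apoptotic member and act after cytokine withdrawal or DNA damage. *Bcl2l11* (ENSMUSG00000027381, chromosome 2, 127951774 to 127988283, plus strand) had a summed FPKM of 22.1 (limits 0.305 to 52.0) in the pre-pro-B library and of 17.3 (limits 0.211 to 41.3) in the pro-B library. Its longest transcript, NM_207680, with an FPKM of 16.4 and 12.2, held 74.3% and 70.8% of the sum. NM_207681, shorter by 168 bases, held 25.7% and 27.9%. NM_009754, shorter by 258 bases than the longest, was listed at 0 in the pre-pro-B library (upper limit 0.0106) and had an FPKM of 0.218 in the pro-B library (limits 0 to 1.21). By FPKM the order of these forms was thus the same in both libraries. This order rests on Cuffdiff's division of common reads, and the limits of NM_207680 and NM_207681 overlapped within each library. *Bbc3* (ENSMUSG00000002083, chromosome 7, 16894965 to 16903554, plus strand) had an FPKM of 8.76 (limits 0.09998 to 17.996) and of 5.09 (limits 0 to 10.9). Summed over the 4 genes, the BH3-only FPKM was 97.6 in the pre-pro-B library (limits 13.2 to 197) and 34.2 in the pro-B library (limits 1.10 to 78.4). *Pmaip1* held 54.4% of it in the pre-pro-B library, and *Bcl2l11* 50.4% in the pro-B library.

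Within the pre-pro-B library the members ranked from *Bcl2*, *Mcl1*, *Pmaip1*, *Bcl2l11* and *Bak1* down to *Bid*, *Bax*, *Bbc3*, *Bcl2l1* and *Bcl2l2*. Within the pro-B library the order was *Mcl1*, *Bcl2l1*, *Bax*, *Bak1*, *Bcl2l11*, *Bcl2*, *Pmaip1*, *Bcl2l2*, *Bbc3* and *Bid*. *Bcl2* went from rank 1 to rank 6 and *Bcl2l1* from rank 9 to rank 2. Ranked by the most abundant transcript of each gene, *Bcl2* (5.70) stood at rank 8 in the pro-B library, below *Pmaip1* and *Bcl2l2*, and *Bcl2l1* again at rank 2. No neighbours in either order had limits apart. Of 45 pairs, 5 had limits apart in the pre-pro-B library, where *Mcl1* stood above *Bcl2l1*, *Bcl2l2*, *Bax* and *Bbc3*, and *Pmaip1* above *Bcl2l2*. In the pro-B library 4 pairs did, with *Mcl1* above *Bcl2l2*, *Pmaip1*, *Bbc3* and *Bid*.

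**Figure D3:**
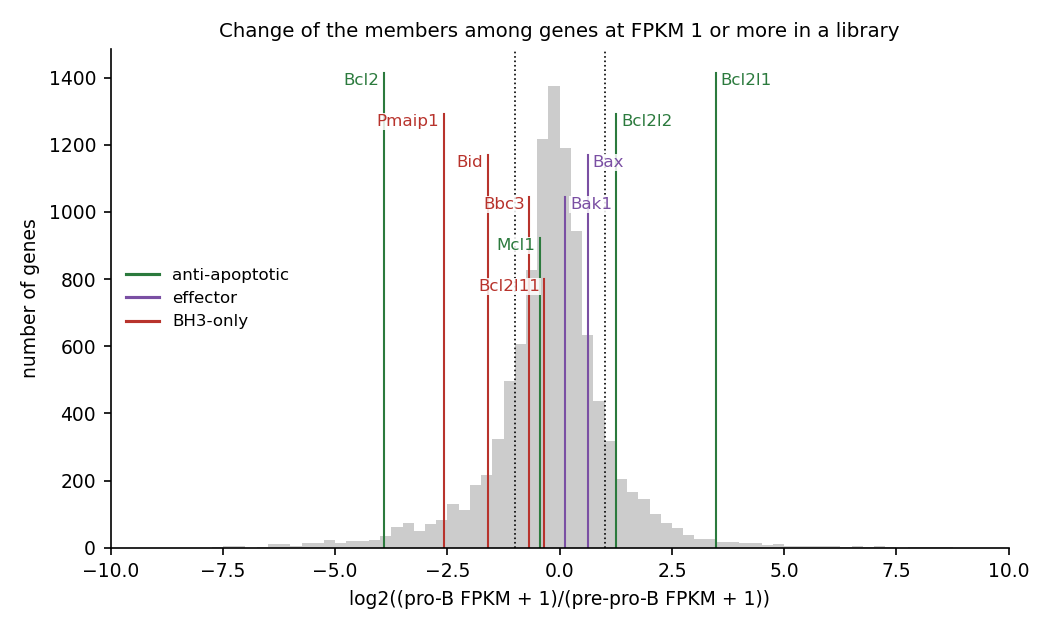
Number of genes (y axis) by log2 change of FPKM + 1 between pro-B and pre-pro-B cells (x axis, positive where pro-B is higher), for the 10528 genes with an FPKM of 1 or more in either library, with a line for each member coloured by role and dotted lines at 2-fold. Bcl2 (-3.92) and Bcl2l1 (3.48) lie in opposite tails, and 5 of the 10 members lie between the dotted lines.

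The other genes of the pathway were taken from 8 lists with 59 genes, all of them measured. On the same scale 4 were 2-fold or more higher in the pro-B library and 9 2-fold or more lower, where 6.34% and 9.94% of all genes were. Among the 47 with an FPKM of 1 or more in either library the counts were also 4 and 9. Of the 10528 genes at that level 12.2% were 2-fold or more higher and 19.1% lower. Both pairs of shares apply to each list below. The median log2 change of the 59 was -0.21, against 0 for all genes. For the 47 with an FPKM of 1 or more in either library it was -0.35, against -0.14 for the 10528 genes at that level. The remaining anti-apoptotic genes were near the bottom of the scale. *Bcl2a1b*, one of a set of near-identical copies whose reads cannot be assigned with certainty, had an FPKM of 1.76 in the pre-pro-B library and was listed at 0 in the pro-B library. *Bok*, a Bax-like gene, was listed at 0 in the pre-pro-B library and had 1.52 in the pro-B library. Of 6 further BH3-only genes, *Bnip3*, a gene of mitochondrial turnover and the hypoxia response, was the only one past 2-fold, with an FPKM of 18.3 and 43.2. *Bnip3l* was the most abundant (56.3 and 65.3), and *Bad* was lower in the pro-B library by less than 2-fold (12.0 and 6.78). Of 4 atypical members, *Bcl2l14* (1.62 and 0.0142) was lower and *Bcl2l15* (0.0181 and 1.85) higher in the pro-B library, and *Bcl2l12* (11.1 and 5.83) and *Bcl2l13* (9.48 and 11.0) were the most abundant.

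Downstream of the mitochondrion, 2 of 10 apoptosome and caspase genes were 2-fold or more lower in the pro-B library (3 with no pseudocount) and 0 higher. Among them was *Casp6*, an executioner caspase, with an FPKM of 54.0 in the pre-pro-B library and 10.2 in the pro-B library. *Aifm1*, a flavoprotein of the mitochondrion, showed the largest difference upward (27.8 and 42.1). On the scale with a pseudocount of 1, of 9 inhibitors of apoptosis 1 was past 2-fold, *Birc5*, which encodes survivin and also serves cell division, with 30.9 in the pre-pro-B library and 124 in the pro-B library. *Naip5* showed the largest difference downward (2.43 and 0.892). With no pseudocount *Naip5* and *Naip2* (1.25 and 3.22, named after its value was seen) were past 2-fold too, which gave 2 genes higher and 1 lower. In the death receptor list 2 of 9 genes were lower in the pro-B library. These were the TNF receptor *Tnfrsf1a* (20.1 and 2.15) and the adaptor kinase *Ripk1* (30.9 and 12.1), the latter named after its value was seen. *Casp8* (63.8 and 54.0) was the most abundant of that list, and *Fas* (1.87 and 2.44) showed its largest difference upward among genes with an FPKM of 1 or more.

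Of 15 regulators 3 were lower in the pro-B library and 0 higher. *Foxo3*, a transcription factor known to induce *Bcl2l11* and *Bbc3*, had an FPKM of 23.2 in the pre-pro-B library and 10.2 in the pro-B library. *Stat5a* (6.70 and 2.60) and *Stat5b* (19.0 and 8.30), which carry the Il-7 signal, were named after their values were seen. *Vdac2*, the channel that recruits Bak, was the most abundant (148 and 128), and *Vdac3* (23.1 and 30.6) showed the largest difference upward among genes with an FPKM of 1 or more. For none of the genes named in these lists were the summed limits of the libraries apart. Markers of other cells differed as well. T and NK cell genes summed to an FPKM of 109 in the pre-pro-B library and 3.17 in the pro-B library (4 of 7 lower, *Gzmb* at 0 in both). The genes of this list were uneven. In the pre-pro-B library *Lck*, *Cd3g* and *Nkg7* had 38.0, 36.8 and 31.3, whereas *Gata3*, *Cd3d* and *Cd3e* had 2.64, 0.533 and 0.239. Stromal genes summed to 19.0 and 11.7 (2 of 9 higher and 1 lower, *Dcn* at 0 in both). The lower one was *Pdgfrb* (15.9 and 0.377), and the other 8 summed to 3.05 and 11.3, with 7 of them at a higher FPKM in the pro-B library. Progenitor and myeloid genes summed to 1007 and 9.45 (7 of 9 lower, *Elane* at 0 in both). Most of the 1007 came from *Cd34*, *Flt3* and *Kit* (534, 303 and 107), given above as markers of the pre-pro-B cells themselves. Of the rest of that list *Mpo* was the highest in the pre-pro-B library (35.7, and 0.122 in the pro-B library). The part of these marker lists in the values of the Bcl2 family was not tested.

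**Figure D4:**
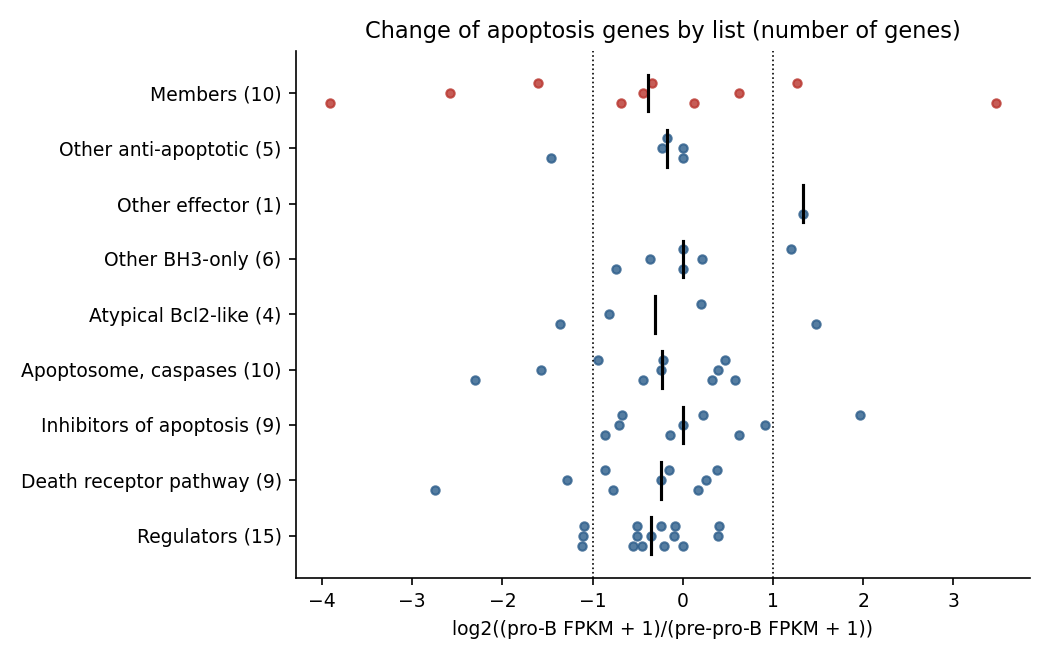
Log2 change of FPKM + 1 between pro-B and pre-pro-B cells (x axis, positive where pro-B is higher) for the 10 members (red) and the genes of 8 pathway lists (blue), 1 point per gene, with black bars at the medians and dotted lines at 2-fold. Bcl2 (-3.92) and Bcl2l1 (3.48) lie beyond every other gene plotted.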

How the data were processed

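The authors deposited FPKM for 30485 RefSeq transcripts in 1 library per cell type, each with a status and the 95% limits of Cuffdiff's model. They trimmed the reads, aligned them to mm9 with TopHat and ran Cuffdiff 2.1.1 with multi-read and fragment bias correction and no scaling between libraries. Multi-read correction divides reads among similar transcripts. A second deposited table repeats the FPKM in 2 columns and holds the authors' fold changes, p-values and q-values, and was not used.

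Of 26968 protein-coding rows, 26555 took a gene name from RefSeq genes of GRCm38.p6, used for names alone. FPKM were summed per gene, and changes are log2((pro-B FPKM + 1)/(pre-pro-B FPKM + 1)). With 1 library per group no test was run, and 2-fold counts are set against the shares over all genes. Coordinates are from GENCODE M1 on mm9. The members, lists and alternatives were chosen with earlier results of these data known. All members were named, and of each list the largest rise, the largest fall (FPKM of 1 or more in either library) and the most abundant gene, with exceptions stated. Values of 2 listed genes are not reported here. Scripts ran in Python 3.11.15, numpy 2.4.6 and pandas 2.3.3, and were tested on simulated data.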

Additional observations from a re-analysis of the deposited data

How the results depend on the processing

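Under every alternative tried (no pseudocount, a pseudocount of 0.1, TPM scaling, median ratio scaling, the most abundant transcript of each gene, transcripts of status OK alone and a minimum FPKM of 1 in a library), each of the 10 members kept its side of the 2-fold threshold and its direction. The status and minimum FPKM settings could not change a member. All 13 transcripts had a status of OK, and all 10 genes an FPKM of 1 or more, in both libraries. Use of the most abundant transcript could change only *Bcl2* and *Bcl2l11*, the members with several transcripts. The log2 change of *Bcl2* ranged from -4.59 to -3.81 and that of *Bcl2l1* from 3.48 to 3.73. Counts of single transcripts were less fixed. At a pseudocount of 0.1, 3 of the member transcripts were 2-fold or more higher in the pro-B library, not 2. Under median ratio scaling 3 were 2-fold or more lower, not 4. Before a pseudocount is added, TPM scaling shifted all log2 ratios by -0.09 and median ratio scaling by 0.11. With the pseudocount of 1, TPM scaling moved the members' log2 changes by between -0.23 (*Bid*) and 0.08 (*Bcl2l2*), and median ratio scaling by between 0.09 and 0.11. In TPM, a different unit, the anti-apoptotic sum was 955 in pre-pro-B and 518 in pro-B cells, the effector sum 81.9 and 99.8, and the BH3-only sum 286 and 94.0. The background moved more than the members. Over all genes, 1284 were higher and 2013 lower in pro-B cells at a pseudocount of 1, 2095 and 3118 at a pseudocount of 0.1, and 2074 and 2663 with none. Of the 228 comparisons of a value that belongs to 1 list or 1 member, 14 moved, 0 of them for a member. A list moved if its count of genes past 2-fold differed by over 1.5 times or was 0 on 1 side alone. A member moved if its call at 2-fold changed. The inhibitors of apoptosis had 2 genes higher and 1 lower with no pseudocount, a pseudocount of 0.1 or TPM, and the stromal genes 6, 6 and 5 higher. In the same settings 3 apoptosome and caspase genes were lower, not 2, which is within 1.5 times. With no pseudocount 3 genes of the death receptor list were lower, not 2. By the most abundant transcript *Bcl2* stood at rank 8 of the 10 in the pro-B library, not 6, with *Pmaip1* and *Bcl2l2* above it. No paired analysis was possible because each cell type has 1 library, and for the same reason no replicate could be left out.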
